A study of Mus musculus with 6 samples.

Results

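The regions described here are the broad H3K27ac domains of mouse quadriceps, the rows of either deposited peak list whose end minus start was 10000 bp or more. They were chosen by this measured length alone. There were 656 such domains among the 46988 peaks of the control list and 641 among the 40721 peaks of the detrained list, 1297 of 87709 in all. H3K27ac, acetylation of lysine 27 of histone H3, was mapped by ChIP-seq in quadriceps of wild-type male C57BL/6J mice that were housed from 8 weeks of age for 4 weeks in single cages without a running wheel (control) or with one. The detrained mice were harvested 72 h after their last bout of running. Each group had 2 H3K27ac libraries, called C2 and C3 (control) and Ex1 and Ex2 (detrained) in the deposited headers, and 1 input library of sheared chromatin without immunoprecipitation. The labels give the strain of all 4 H3K27ac samples as C57BL/6, and those of the control and detrained inputs as C57BL/7 and C57BL/8. The H3K27ac libraries held between 20805019 and 22400894 tags, the control input 10812470 and the detrained input 21298438, and each peak list was called on both libraries of its group against that group's input. The muscle label was checked against 9 marker genes: 8 of them, among them Ttn, Ckm and Acta1, were the nearest gene of at least 1 peak in each list, and 4 were the nearest gene of a control domain and 2 of a detrained domain.

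Acetylated H3K27 is deposited by the coactivators p300 and CBP at active promoters and enhancers. Most acetylated regions span a few nucleosomes, whereas long unbroken stretches usually form where several enhancers and a promoter lie close together, often around genes that define the identity of a cell. In skeletal muscle such stretches are known around genes of the contractile apparatus, of glucose use and of the myogenic transcription factors. A domain in a peak list is also a product of the caller, which stitches neighbouring signal together and breaks it wherever the signal drops below its limit.

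Each domain was followed into the other list by what covered it there. Where a single peak covered at least 80% of it, it was called whole. A single peak covering less made it shortened, 2 or more peaks made it split, and no overlapping peak made it absent. The stretches between the parts of a split domain are called gaps. As examples, 300 bases are given of 6 promoters lying in domains and of the middle of the longest gap in 4 domains, with every CpG in capitals. The promoter windows run from before the transcription start site to 50 bases after it, from RefSeq, build GRCm38.p6, which is mm10. Promoters are only a part of the covered sequence, so these windows do not stand for all of it. The promoters are of Cish, Myh4, Myh1, Mb, Fhl1 and Per1, each of which lay inside a listed peak in both lists, and each sequence reads 5′ to 3′ along the strand of the gene.
Cish promoter, chr9:107296409-107296708, plus strand: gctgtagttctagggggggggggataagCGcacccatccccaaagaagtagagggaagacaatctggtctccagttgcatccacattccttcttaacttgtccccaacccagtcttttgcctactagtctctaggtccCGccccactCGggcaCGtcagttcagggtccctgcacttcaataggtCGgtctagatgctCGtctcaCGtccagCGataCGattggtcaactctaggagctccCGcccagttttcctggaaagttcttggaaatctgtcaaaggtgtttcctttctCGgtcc
Myh4 promoter, chr11:67237562-67237861, plus strand: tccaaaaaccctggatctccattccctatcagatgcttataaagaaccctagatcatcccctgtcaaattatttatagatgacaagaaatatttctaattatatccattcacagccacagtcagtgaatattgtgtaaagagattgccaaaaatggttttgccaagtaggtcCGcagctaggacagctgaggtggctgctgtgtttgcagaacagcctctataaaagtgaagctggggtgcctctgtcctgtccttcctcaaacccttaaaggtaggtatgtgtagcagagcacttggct
Myh1 promoter, chr11:67199852-67200151, plus strand: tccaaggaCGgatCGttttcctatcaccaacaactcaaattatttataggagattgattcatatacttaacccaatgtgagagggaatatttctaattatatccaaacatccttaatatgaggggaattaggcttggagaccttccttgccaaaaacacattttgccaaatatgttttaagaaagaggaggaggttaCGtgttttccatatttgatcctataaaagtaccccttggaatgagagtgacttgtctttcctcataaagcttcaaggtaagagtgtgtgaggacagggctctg
Mb promoter, chr15:77022738-77023037, minus strand: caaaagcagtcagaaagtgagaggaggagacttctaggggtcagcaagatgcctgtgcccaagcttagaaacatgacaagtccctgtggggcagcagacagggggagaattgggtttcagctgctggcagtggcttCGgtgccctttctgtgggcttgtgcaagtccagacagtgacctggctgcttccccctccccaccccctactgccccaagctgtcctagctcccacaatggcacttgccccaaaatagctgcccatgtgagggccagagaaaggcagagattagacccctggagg
Fhl1 promoter, chrX:56779433-56779732, plus strand: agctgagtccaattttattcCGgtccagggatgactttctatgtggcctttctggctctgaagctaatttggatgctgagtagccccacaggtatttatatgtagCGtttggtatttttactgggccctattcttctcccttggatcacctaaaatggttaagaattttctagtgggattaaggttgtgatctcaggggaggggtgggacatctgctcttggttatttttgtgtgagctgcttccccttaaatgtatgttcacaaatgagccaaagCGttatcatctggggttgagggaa
Per1 promoter, chr11:69098699-69098998, plus strand: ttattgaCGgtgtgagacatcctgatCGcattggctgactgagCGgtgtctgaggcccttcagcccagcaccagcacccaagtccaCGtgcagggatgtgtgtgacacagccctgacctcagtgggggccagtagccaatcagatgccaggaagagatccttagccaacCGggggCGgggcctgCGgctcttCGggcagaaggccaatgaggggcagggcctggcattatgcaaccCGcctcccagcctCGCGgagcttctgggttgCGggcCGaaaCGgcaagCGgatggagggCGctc
The gap windows come from the control domain around Cish and the control domain over Myh4, both split in the detrained list, and from the detrained domains over Mb and Fhl1, both split in the control list. They are read along the plus strand of the same build.
Cish gap, chr9:107315390-107315689, plus strand: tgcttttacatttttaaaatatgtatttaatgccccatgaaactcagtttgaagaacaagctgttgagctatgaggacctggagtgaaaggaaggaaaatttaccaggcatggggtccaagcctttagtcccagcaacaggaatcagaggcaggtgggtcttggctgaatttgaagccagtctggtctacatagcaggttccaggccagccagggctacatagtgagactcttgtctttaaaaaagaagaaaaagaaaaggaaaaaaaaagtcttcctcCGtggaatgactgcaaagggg
Myh4 gap, chr11:67228483-67228782, plus strand: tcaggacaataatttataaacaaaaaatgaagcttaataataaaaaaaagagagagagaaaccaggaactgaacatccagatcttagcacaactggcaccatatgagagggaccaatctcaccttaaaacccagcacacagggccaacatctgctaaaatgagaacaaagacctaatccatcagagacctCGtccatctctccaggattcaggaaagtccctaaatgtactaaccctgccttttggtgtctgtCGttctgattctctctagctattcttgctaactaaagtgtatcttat
Mb gap, chr15:77025208-77025507, plus strand: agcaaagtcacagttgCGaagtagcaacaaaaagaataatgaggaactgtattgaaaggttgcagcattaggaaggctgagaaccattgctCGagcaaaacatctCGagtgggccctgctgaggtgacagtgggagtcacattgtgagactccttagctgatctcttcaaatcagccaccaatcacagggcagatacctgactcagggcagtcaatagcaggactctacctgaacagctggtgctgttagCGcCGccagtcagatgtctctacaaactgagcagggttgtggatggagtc
Fhl1 gap, chrX:56784165-56784464, plus strand: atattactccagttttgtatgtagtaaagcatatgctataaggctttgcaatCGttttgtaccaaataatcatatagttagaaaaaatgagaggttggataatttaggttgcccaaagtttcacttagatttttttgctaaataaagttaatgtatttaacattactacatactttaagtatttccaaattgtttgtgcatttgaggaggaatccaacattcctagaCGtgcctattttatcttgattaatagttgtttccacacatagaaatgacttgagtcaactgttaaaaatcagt
The promoter windows of Cish and Per1 held 11 and 16 CpG, those of Myh1 and Fhl1 held 3 each, and those of Myh4 and Mb held 1 each. The gap windows held 1 at Cish, 2 at Myh4, 5 at Mb and 2 at Fhl1. The 2 windows richest in CpG were thus those of Cish and Per1, while at Myh4 and Mb the promoter held fewer CpG than the gap and at Fhl1 1 more. Over all domains, the 540 RefSeq promoter windows inside control domains held a median of 13 CpG and the 505 inside detrained domains 12, against 21 in the 12015 and 11916 promoter windows inside any control or detrained peak and 7 in all 32851 windows. The middle 300 bases of the gaps held a median of 3, with a range of 0 to 29 over 374 gaps in control domains and of 0 to 15 over 365 gaps in detrained domains. The sequence CAGCTG, which is its own reverse complement and is 1 form of the E-box bound by myogenic factors, was in 119 of the 540 promoter windows in control domains and 115 of the 505 in detrained domains (22.8%), against 16.3% of all windows and 16.2% and 16.1% of those inside any control or detrained peak. The AP-1-type sequence TGANTCA, also its own reverse complement, was in 7.22% and 7.52%, against 7.81% of all windows and 5.11% and 5.33% of those inside any peak. The general E-box CANNTG, which includes CAGCTG, was in 67.4% and 68.3% of the windows in domains, against 72.3% of all windows and 62.6% of those inside any peak of either list.

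The domains were few but long and dense. Their median length was 12898 bp in the control list and 12549 bp in the detrained list, with 95% of them under 24610 bp and 24025 bp, and the longest reached 73206 bp and 55388 bp. They made up 1.40% and 1.57% of the peaks, 9.26% and 9.06% of the listed length and 14.0% and 13.2% of the tags in listed peaks. Their median density was 63.6 tags per kb in the control list and 59.7 in the detrained list, where tags are the pooled count of both libraries scaled to a total of 10000000. Peaks from 5 kb to under 10 kb had medians of 50.4 and 47.6 tags per kb, so the domains were 1.26 and 1.25 times as dense. By library, the domain median was 58.7 in C2 and 67.8 in C3, and 61.1 in Ex1 and 58.6 in Ex2. These medians are over the domains of each library's own list. Within a list, the log2 ratio of C3 to C2 had a median of 0.21 and that of Ex2 to Ex1 a median of −0.06, so the control libraries lay farther apart. Both length and density come from the same peak call that chose the domains, so these values describe the domains and no test was made of them.

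The densest domains of both lists included those of a chromatin enzyme and a clock gene. In the control list the first 3 were those nearest to Setd1b, a histone H3K4 methyltransferase (198 tags per kb), Per1, a repressor of the circadian clock (188), and Tnrc18 (182). In the detrained list they were Per1 (213), 2310001H17Rik (206) and Setd1b (187). The sparsest control domains, at Amot (24.1 tags per kb), a regulator of Hippo signalling, Notch1 (25.6), a receptor of vessel and stem cells, and Cep295nl (26.5), and the sparsest detrained ones, at Gm8817 (20.9), Sash1 (23.2) and Ccdc81 (23.9), were below the median density of peaks from 5 kb to under 10 kb.

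Most domains lay over the bodies of genes rather than being centred on their starts. The centre fell in an intron in 67.7% of control and 68.0% of detrained domains, against 50.8% and 49.1% of all peaks, and between genes in 18.8% and 21.2%, against 30.7% and 30.5%. It fell in a promoter in 5.49% and 4.37%, against 11.2% and 12.6%. A long interval has only 1 centre, however, and 69.5% of control domains (95% Wilson interval 65.9 to 72.9) and 63.5% of detrained domains (59.7 to 67.1) held at least 1 annotated transcription start site of the GENCODE basic set, against 26.0% and 29.8% of all peaks. The peaks under 10 kb had median lengths of 1548 and 1777 bp, and a longer interval meets more start sites by its length alone. Of the control domains, 292 lay wholly inside 1 protein-coding gene, 97 touched 2 or more such genes and 78 touched none, and the detrained counts were 289, 97 and 84. The nearest gene was noncoding for 88 domains in each list.

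Followed into the list of the other group, about as many domains stayed whole in 1 direction as in the other. Of the 656 control domains, 344 (52.4%, 48.6 to 56.2) were whole in the detrained list, 290 (44.2%) were split, 21 (3.20%) were shortened and 1 (0.152%) was absent. Of the 641 detrained domains, 355 (55.4%, 51.5 to 59.2) were whole in the control list, 274 (42.7%) were split, 12 (1.87%) were shortened and none was absent. Over all control peaks 48.1% were whole, 3.2% split, 20.8% shortened and 27.9% absent, and over all detrained peaks 50.9%, 4.76%, 26.4% and 18%. Among peaks from 5 kb to under 10 kb, 21.8% of control and 26.0% of detrained peaks were split and 11 in each list were absent. Longer peaks were thus split more often and absent less often in both lists. A longer interval can meet more peaks, and the fates rest on the same peak calls that chose the domains, so these shares are a description without a test.

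**Figure D1:**
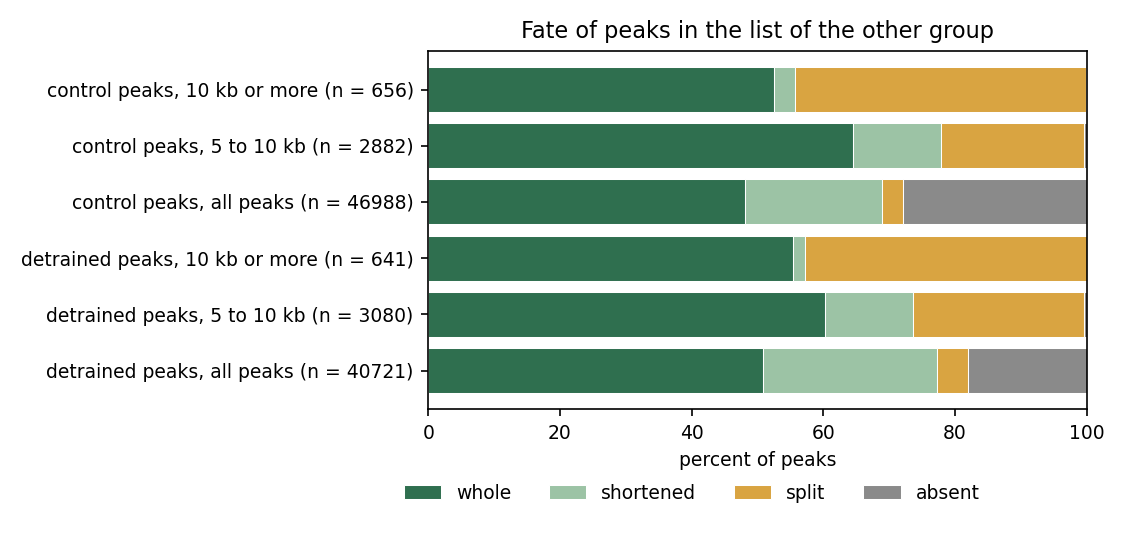
Percent of peaks that were whole, shortened, split or absent in the list of the other group, for the broad domains, for peaks from 5 kb to under 10 kb and for all peaks of each list. Broad domains were split in 44.2% (control) and 42.7% (detrained) of cases, while 27.9% and 18% of all peaks had no counterpart.

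Little of a domain was left uncovered in the other list. The peaks of the other list covered a median of 93.5% of a control domain and 93.6% of a detrained one. Of the split control domains, 223 were in 2 parts, 54 in 3, 10 in 4, 2 in 5 and 1 in 6, and of the split detrained domains 196 were in 2 parts, 66 in 3, 11 in 4 and 1 in 5. A counterpart that was itself 10000 bp or more was present for 436 control domains (66.5%) and 440 detrained domains (68.6%), and the counterpart was longer than the domain itself for 211 and 233. For 241 pairs of domains that overlapped 1 to 1, the edges lay a median of 372 bp apart, 113 pairs were longer in the detrained list and 127 were shorter.

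The gaps were short and poor in start sites. The median was 814 bp over the 374 gaps of control domains and 838 bp over the 365 of detrained domains, and 63.6% and 62.7% of them were under 1000 bp. Only 11 control gaps (2.94%) and 9 detrained gaps (2.47%) held an annotated start site, and start sites came at 0.32 and 0.24 per 10 kb of gap against 1.16 and 1.04 per 10 kb of the covered parts. The GC content was 45.2% in gaps and 48.5% in covered parts of control domains, and 47.8% and 49.7% in detrained domains. The gap was the poorer in GC in 227 of 290 split control domains (78.3%) and in 199 of 274 split detrained domains (72.6%), and the poorer in CpG in 221 and 200. CpG came at 11.2 per kb of gap and 16.3 per kb of covered parts in control domains, and at 12.2 and 15.8 in detrained domains. Repeat-masked bases made up 24.6% of control gaps and 18.2% of covered parts, and 23.4% and 17.9% in the detrained domains. Gaps in peaks from 5 kb to under 10 kb had like values, with 44.9% GC in control and 46.4% in detrained gaps, and start sites in 1.80% and 2.19% of them. CAGCTG came at 0.50 and 0.60 per kb of gap against 0.66 and 0.71 per kb of covered sequence, whereas CANNTG came at 5.83 and 5.98 per kb of gap against 5.65 and 5.90. Gaps in the domains of the 2 lists were close in median length and in the share with a start site, while GC content was 45.2% and 47.8%.

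Domains of low density were split most often. Of the 164 control domains with the lowest density, 24.1 to 49.6 tags per kb, 57.9% were split and 48.2% had a counterpart of 10000 bp or more. Of the 164 with the highest, 82.2 to 198 tags per kb, 24.4% were split and 85.4% had such a counterpart. The detrained domains ran from 70.2% split among the 161 sparsest to 17.5% among the 160 densest. Splitting was also more frequent among long domains, at 35.2% of control domains of 12 kb or less and 58.6% of those over 20 kb, and at 39.3% and 48.4% of detrained domains. The long domains were the denser ones, with a median of 78.9 tags per kb over 20 kb against 60.6 between 12 and 15 kb in the control list.

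The limit of 10000 bp ran through a continuous range of lengths. The peaks just under it in the control list were nearest to Tmem100 (9985 bp), Hr (9987 bp) and Mbnl2 (9990 bp), and those just over it to Eepd1 (10011 bp), Synpo (10023 bp) and Sel1l3 (10039 bp). In the detrained list Palm2 and P2ry2 (9988 bp each) and 6030407O03Rik (9998 bp) lay just under and Synpo (10001 bp), Rabgef1 (10002 bp) and Mtss1l (10006 bp) just over. In all, 96 control and 123 detrained peaks lay within 500 bp under the limit and 73 and 87 within 500 bp over it. The control peaks of 9985 bp at Tmem100 and 9987 bp at Hr missed the limit by little, while the longest detrained peaks overlapping them, of 10437 and 10995 bp, were domains.

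Joined where they overlapped, the domains of both lists made 852 loci. At 431 of them both lists had a domain, at 220 only the control list and at 201 only the detrained list.

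**Figure D2:**
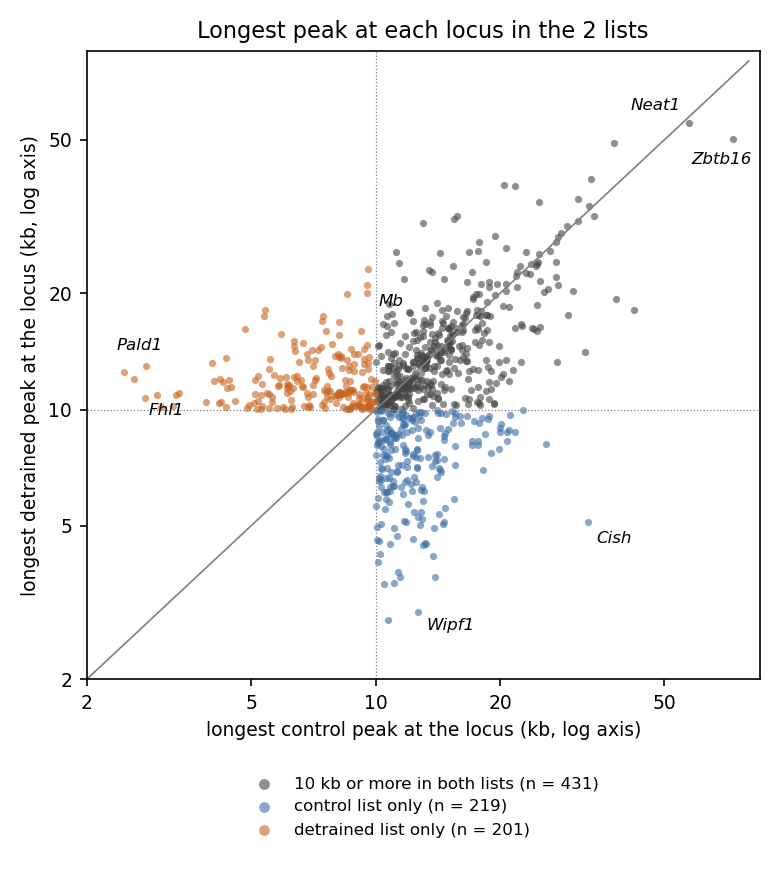
Longest peak at each locus in the control list (horizontal, kb, log axis) and in the detrained list (vertical, kb, log axis); each point is 1 locus, dotted lines mark 10 kb, and the grey line marks equal length. The Map4 locus, with no detrained peak, is not drawn. Loci lie on both sides of the line of equal length, with Cish (32586 bp and 5102 bp) and Pald1 (2776 bp and 12946 bp) among the farthest from it.

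The tags at these loci did not separate the groups. The listed peaks at the 852 loci held 7.35% of all tags of C2, 8.50% of C3, 7.83% of Ex1 and 7.51% of Ex2. Both detrained libraries lay between the control libraries, and the groups overlapped. At the 431 loci with domains in both lists the shares were 4.80%, 5.58%, 5.16% and 4.96%, again with both detrained values inside the control range. The median log2 ratio of detrained to control tags, with 0.5 tags added, was −0.04 over all loci and −0.03 over the 431. It was −0.18 at the loci with a control domain alone and 0.14 at those with a detrained domain alone, directions that the choice of the loci fixes. With 2 libraries in each group an exact two-sided permutation test cannot give a p below 0.333, and the tables were normalized separately, so no test between the groups was made. Whether fewer cells of a type or less acetylation per cell lay behind a value cannot be told apart in whole muscle.

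**Figure D3:**
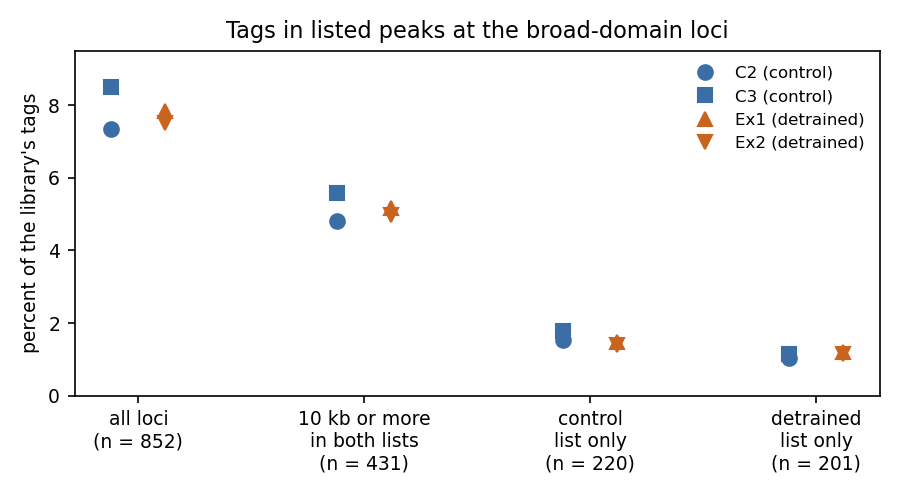
Percent of each library's tags that lay in listed peaks at the broad-domain loci, for all loci and by the list that held a domain; each point is 1 library. Both detrained libraries (7.83% and 7.51%) lie between C2 (7.35%) and C3 (8.50%) over all loci.

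Locus by locus, Ex1 and Ex2 were both under C2 and C3 at 230 of the 852 loci and both over them at 143 (16.8%), and the groups overlapped at 479. Over the 31776 loci with peaks in both lists the shares were 29.5% below and 28.1% above. Of the 230 loci, 118 had a control domain alone and 98 a domain in both lists, and of the 143, 90 had a detrained domain alone and 52 a domain in both. Bases with no listed peak were counted as holding no tags here, which they need not do. When they were filled at the lowest density of any listed peak of 5000 bp or more, 195 loci lay below and 108 above. Over all loci with peaks in both lists 8178 and 5395 of 31776 did, so filling moved the balance towards lower there as well. The lowest density was 14.995 tags per kb in the control list and 12.6 in the detrained list. Among single libraries this minimum was largest for C2 (15.2) and smallest for Ex2 (11.2), while C3 had 12.9 and Ex1 had 13.6. A fill that is higher on the control side favours lower detrained values by itself, so no conclusion is drawn from this move.

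The domain in the most parts was that of Cish, a feedback inhibitor of growth hormone and cytokine signalling that is induced by STAT5. In the control list it was 1 domain of 32586 bp on chromosome 9 (107295450 to 107328036) that touched Cish and Hemk1. In the detrained list it was 6 peaks of at most 5102 bp that covered 76.4% of it, with 1 gap of 3010 bp and 4 of 629 to 999 bp. It held 2115 tags in C2 and 1826 in C3, against 620 in Ex1 and 1370 in Ex2. Both detrained libraries were lower than both control libraries, and they differed from each other by more than the control libraries did. The log2 ratio was −0.97, and −0.83 with the uncovered bases filled. It was −0.52 without Ex1 and −1.67 without Ex2. The promoter printed above, inside the first stretch of the domain, was in a listed peak in both lists.

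**Figure D4:**
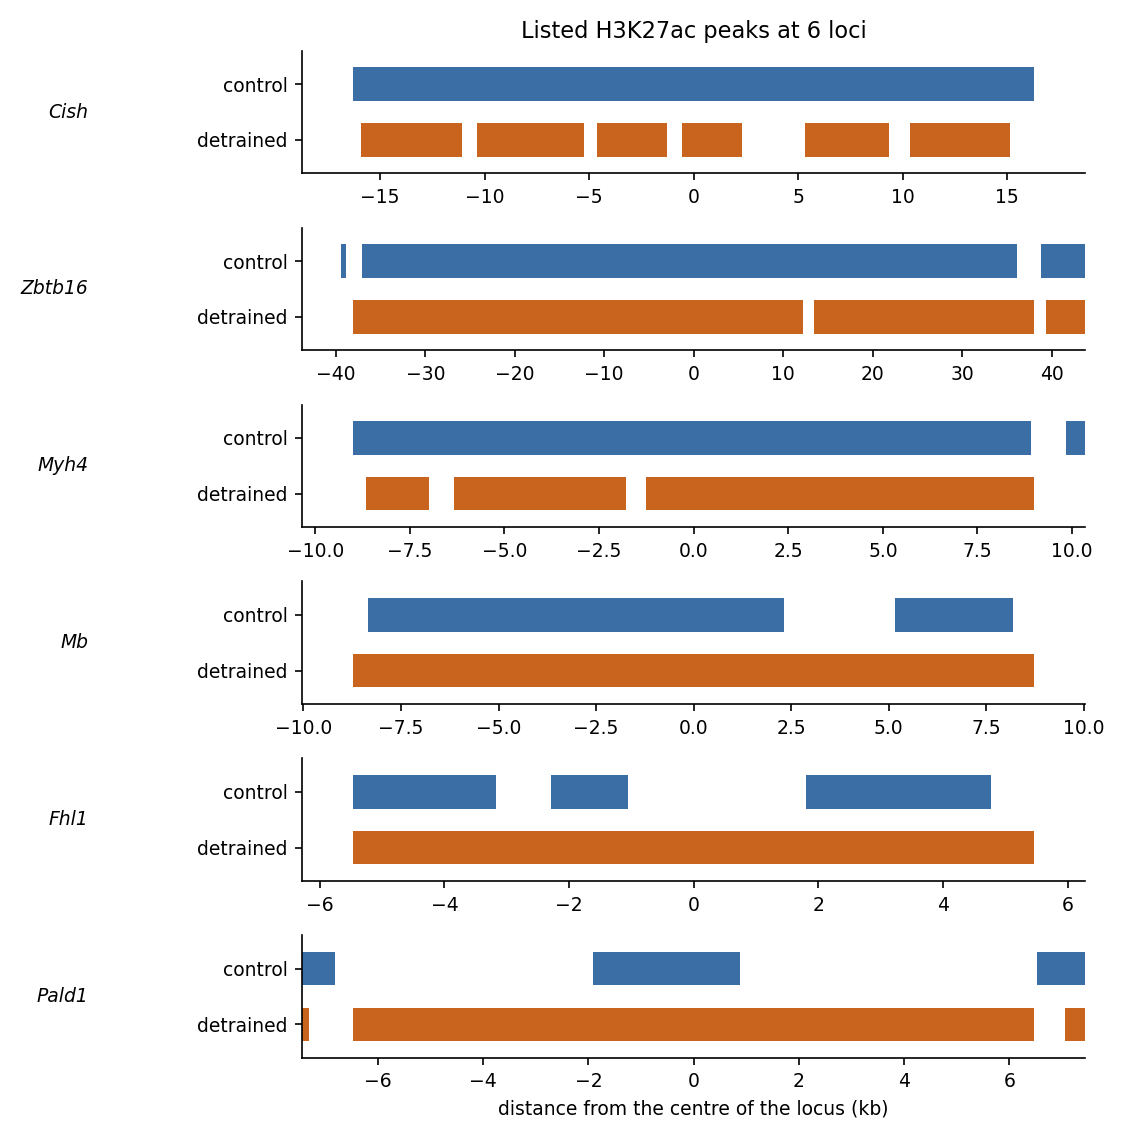
Listed H3K27ac peaks in the control and detrained lists at 6 loci, as bars along the distance from the centre of the locus in kb. Cish, Zbtb16 and Myh4 are 1 control domain against 6, 2 and 3 detrained peaks, and Mb, Fhl1 and Pald1 are 1 detrained domain against 2, 3 and 1 control peaks, with neighbouring peaks at the margins.

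Only the domain in Map4, a microtubule-associated protein, had no counterpart. It spanned 10978 bp on chromosome 9 (110060461 to 110071439), was sparse at 28.6 tags per kb, and held 300 tags in C2 and 328 in C3. Another control domain of the gene, of 10801 bp, was covered to 62.4% by a detrained peak and held 419 and 620 tags in C2 and C3, against 428 and 364 in Ex1 and Ex2, with overlapping groups. As no detrained peak is listed at the first, no fold of listed tags is given for it.

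Detrained peaks covered between 25.2% and 56.7% of 4 more control domains. They were named for this low coverage, which favours lower detrained values. The domain in Mapkapk2, a kinase downstream of p38 MAP kinase, spanned 19524 bp at 29.4 tags per kb and was covered to 25.2%. Its tags were 588 and 560 in C2 and C3, against 210 and 204 in Ex1 and Ex2. A detrained domain of 11715 bp lay across its edge, however, and over the joined locus the values were 1372, 1551, 981 and 950, so the groups still did not overlap. The domain in Wipf1, an actin regulator, went from 12652 bp to 3 peaks of up to 2995 bp covering 47.9%, and held 386, 351, 215 and 225 tags in C2, C3, Ex1 and Ex2. The ratio was −0.74 on the log2 scale and −0.28 with uncovered bases filled.

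The domain in Atp8a1, a phospholipid flippase, held fewer tags in both detrained libraries. It spanned 10505 bp in the control list and was covered to 56.7% by 3 detrained peaks, with 500 and 466 tags in C2 and C3, against 166 and 209 in Ex1 and Ex2. The groups did not overlap, with a log2 ratio of −1.36, or −0.97 when filled. As the domain was named for its low coverage by detrained peaks, this direction was favoured by the choice. The Pecam1 domain (14684 bp), over an adhesion molecule of endothelial cells, was covered to 55.4% and held 526, 533, 398 and 423 tags, with ratios of −0.36 and −0.10. A domain in Hivep2, a zinc finger transcription factor, was 10735 bp in the control list and 3 peaks of at most 2841 bp in the detrained list, while its tags were 410, 420, 340 and 351, a ratio of −0.26, or −0.07 when filled. The longest peak at Hivep2 thus differed far more between the lists than its tags did.

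The 5 detrained domains least covered by control peaks had 23.2 to 35.2 tags per kb. Naming them for low coverage favours higher detrained values. The domain in Pald1, which encodes the phosphatase-like protein paladin, was 12946 bp at 27.9 tags per kb on chromosome 10 (61364438 to 61377384), where the control list had a single peak of 2776 bp covering 21.4%. The listed peaks held 128 tags in C2 and 143 in C3, against 367 in Ex1 and 355 in Ex2. Both detrained libraries were above both control libraries, and the log2 ratio was 1.41, or 0.33 with the uncovered control bases filled. At 8430408G22Rik, a domain that touched Rassf4 and Depp1, 3 control peaks covering 48.6% became 11979 bp, with 149, 186, 324 and 301 tags and ratios of 0.90 and 0.26. At a domain in Sash1, a signalling scaffold, 3 peaks covering 56.0% became 12486 bp with 193, 225, 305 and 276 tags, and the ratio of 0.47 was −0.01 when filled, with the groups then overlapping.

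The domain at Fhl1, a LIM domain protein of the sarcomere, kept the highest filled ratio of these 5. The detrained domain of 10928 bp on chromosome X (56778476 to 56789404) stood in place of 3 control peaks of at most 2958 bp covering 59.3%. It held 127 and 140 tags in C2 and C3, against 322 and 256 in Ex1 and Ex2, and the groups did not overlap, with a log2 ratio of 1.10, or 0.52 filled. At the domain nearest to Dnah17, which lay over Cyth1, 3 control peaks became 10903 bp, with 234, 291, 424 and 346 tags, and the filled ratio of 0.22 came with overlapping groups.

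**Figure D5:**
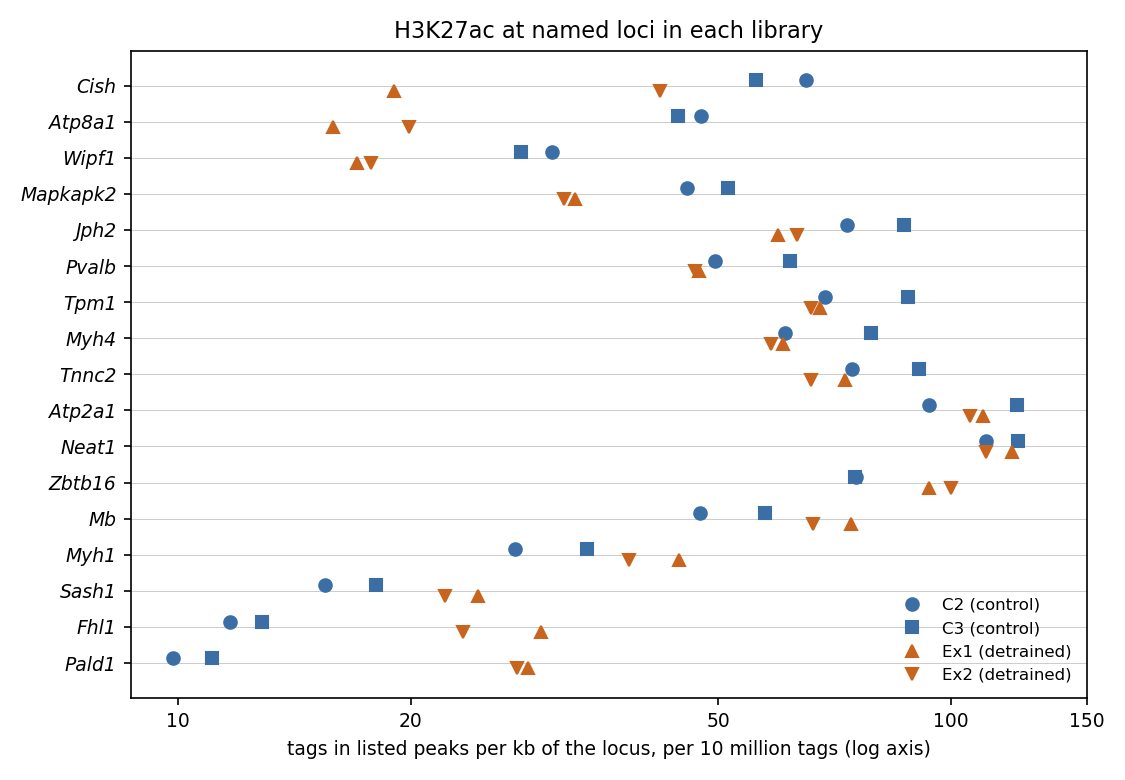
Tags in listed peaks per kb of the locus, per 10000000 tags (log axis), at 17 named loci in each of the 4 libraries. Both detrained libraries lie to the left of both control libraries from Cish down to Tnnc2, the groups overlap at Atp2a1 and Neat1, and both detrained libraries lie to the right from Zbtb16 down to Pald1.

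The longest domains kept most of their extent. The Zbtb16 domain, inside the gene of the transcription factor PLZF, was 73206 bp on chromosome 9 (48705600 to 48778806) in the control list and 2 peaks of 50270 and 24583 bp in the detrained list, covering 98.2%. The joined locus held 5742 and 5725 tags in C2 and C3, against 7130 and 7613 in Ex1 and Ex2. The detrained libraries were both higher, with a log2 ratio of 0.36 that was unchanged by filling, although the domain counts as split. The other 2 loci of broad domains in the same gene were also higher in both detrained libraries, at 576, 452, 646 and 671 tags and at 1817, 2071, 2178 and 2113 tags. All 3 lie in 1 gene and are not independent, and without C3 or C2 the ratio of 0.36 at the first of these was 0.19 or 0.54 and that of 0.14 at the second was 0.24 or 0.05.

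The Neat1 domain, over the long noncoding RNA that builds paraspeckles, was 57233 bp in the control list and 55388 bp in the detrained list. Its tags, 6349 and 6996 in C2 and C3, against 6877 and 6360 in Ex1 and Ex2, overlapped between the groups. Domains in 2 splicing regulators of muscle were cut up while their tags overlapped between the groups. Mbnl1 went from 42228 bp to 5 parts with 3074, 3630, 3256 and 2925 tags, and Rbfox1 from 38111 bp to 3 parts with 2842, 3799, 2834 and 3071 tags. At Rcsd1, which encodes a protein that binds the actin-capping protein CapZ, control domains of 37743 and 10428 bp were 1 detrained domain of 49146 bp, with 3041, 3770, 3021 and 3142 tags. The control domain at Nr2f2, an orphan nuclear receptor, was in 5 parts in the detrained list and held 942, 1041, 799 and 764 tags, which did not overlap.

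Some long detrained domains were joined from several control peaks in the same way. That nearest to Mir6338, in Smtnl2, was 39657 bp against 2 control peaks, with overlapping values of 2371, 3073, 2768 and 2500 tags over the joined locus. That nearest to E030018B13Rik and touching Klf13, a zinc finger transcription factor, was 38251 bp against 3 peaks, with 2501, 2586, 2886 and 2894 tags, both detrained libraries above. The detrained domain at Cd248, a marker of pericytes and stromal cells, was 15705 bp against 5 control peaks, with 392, 405, 463 and 460 tags. Its log2 ratio was 0.21, or 0.04 when filled. At Mir3075, in Zmiz1, 25566 bp stood against 4 control peaks with 876, 1153, 1215 and 1159 tags, both detrained libraries above, although the groups overlapped when filled. At Cuedc1, 37941 bp stood against 4 control peaks with overlapping values of 2871, 3644, 3326 and 3208 tags.

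Genes of fast fibres often stood next to a domain. Of 16 genes of fast fibres, 6 were the nearest gene of a control domain and 6 of a detrained domain, 4 of them of both, whereas 593 (3.79%) and 575 (3.68%) of the 15643 genes named in the lists were. None of 15 slow-fibre genes was, although 10 of those had a peak in each list, and none of 4 developmental myosin genes was. Over the gene bodies that a domain touched, the counts for fast-fibre genes were 8 and 8 and those for slow-fibre genes 0 and 0. The shares of 3.79% and 3.68% over all named genes also stand beside the counts by nearest gene of the lists below. Of the 8 fast-fibre loci, Ex1 and Ex2 were both under C2 and C3 at 4 and both over them at 1, beside 29.5% and 28.1% of the 31776 loci of any length and 230 and 143 (16.8%) of the 852 loci of broad domains.

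In the myosin heavy chain cluster on chromosome 11, neighbouring loci differed in opposite directions. The control domain over Myh4, the heavy chain of type IIb fibres, for which the deposited annotation names the antisense RNA gene Myhas, was 17925 bp (67226293 to 67244218). In the detrained list it was 3 peaks, the longest a domain of 10265 bp over the Myh4 promoter, with gaps of 640 and 525 bp. The locus held 1099 and 1419 tags in C2 and C3, against 1091 and 1054 in Ex1 and Ex2. Both detrained libraries were below both control libraries, but C2 by only a little, and the groups overlapped once the uncovered bases were filled.

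At Myh1, the heavy chain of type IIx fibres, a control peak of 8307 bp was a detrained domain of 12844 bp (67195781 to 67208625) that also touched Myh2. It held 350 and 435 tags in C2 and C3, against 570 and 492 in Ex1 and Ex2, with both detrained libraries above. The log2 ratio was 0.43 and, filled, 0.20 with overlapping groups, and it was 0.29 without C2 and 0.60 without C3. The Myh4 ratio was −0.23, and −0.21 filled, but −0.04 without C3 and −0.40 without C2. These heavy chain genes are near-identical over parts of their coding sequence, and the study's alignment kept only reads with a single match, so reads shared by both are missing from these values.

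Further fast-fibre domains were lower in the detrained libraries or overlapped. The domain at Pvalb, the calcium buffer parvalbumin, went from 21762 bp to 3 peaks of at most 8745 bp, with 1077, 1349, 1028 and 1014 tags in C2, C3, Ex1 and Ex2. That over Tpm1, a tropomyosin, went from 22791 bp to 2 peaks of at most 9964 bp, with 1565, 2009, 1542 and 1502 tags. Tnnc2, fast troponin C, held 974, 1190, 954 and 862 tags. At these 3 loci Ex1 and Ex2 were under C2 and C3, and the distance to C2 was smaller than that between C2 and C3. Without C3 the log2 ratios of Pvalb, Tpm1 and Tnnc2 were −0.08, −0.04 and −0.10, and with all libraries −0.25, −0.23 and −0.25. With the uncovered bases filled, the groups overlapped at Tpm1 and Tnnc2. At Atp2a1, the calcium pump SERCA1 of fast fibres, the values of 1481, 1926, 1738 and 1673 tags overlapped.

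Enzymes of muscle energy supply, most of them of glucose use, had the highest share of genes next to a domain among the gene lists, in both groups. Of 24 genes of glycolysis and glycogen metabolism, a list that also holds the creatine kinase gene Ckm, 13 (54.2%) were nearest to a control domain and 10 (41.7%) to a detrained domain, 8 to both. Those next to a control domain alone were Ckm, Eno3, Gys1, Pkm and Pygm. Of the 18 loci, 6 were lower in both detrained libraries and none was higher in both. Over the loci of any length these shares were 29.5% and 28.1%. Of the 852 loci of broad domains, 230 were lower and 143 (16.8%) higher. The median log2 ratio of the 18 loci was −0.13, beside −0.04 over the loci of broad domains. It was 0.0095 without C3, beside 0.070, and −0.28 without C2, beside −0.14. The 18 loci are not independent, since 2 of the 6 were at Gpi1 and 3 of the 18 at Pgm2. The longest, at Hk2, hexokinase 2, was 28982 bp in the control and 29839 bp in the detrained list with overlapping values of 2379, 3153, 2773 and 2718 tags. At Gpi1, glucose-6-phosphate isomerase, 1 of its 2 loci held 561, 721, 485 and 506 tags, and at Eno3, muscle enolase, a domain of 20152 bp was split into 2 and held 1592, 1923, 1592 and 1463, with C2 and Ex1 equal to the nearest tag and overlapping groups when filled.

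Loci of genes that couple excitation to contraction were lower or overlapping. Of 16 such genes 6 were next to a control domain and 5 to a detrained one, and at 5 of 8 loci both detrained libraries were below both control libraries, with a median log2 ratio of −0.22 and none above. Over all loci with peaks in both lists 29.5% were below, 28.1% above and the median was −0.01. Of the 852 loci of broad domains, 230 were below and 143 (16.8%) above, with a median of −0.04. Without C3 the median of the 8 ratios was −0.064 and 3 of them were over 0, with a median of 0.070 over the loci of broad domains, and without C2 it was −0.37. The list's loci are not independent, since 3 of them lie in Jph2, the junctophilin that holds the junctions of the sarcoplasmic reticulum. The longest of the 3 held 2022 and 2391 tags in C2 and C3, against 1647 and 1742 in Ex1 and Ex2, a ratio of −0.38 and of −0.37 when filled, and of −0.25 without C3. At the other 2 the ratio was −0.33 each, and −0.065 and −0.086 without C3. Cacna1s, the voltage sensor of the T-tubule, held 729, 898, 694 and 642 tags. Of 28 genes of titin, nebulin and the Z-disc, 10 were next to a control and 11 to a detrained domain, and of their 16 loci 2 were lower and 1, Fhl1, was higher in both detrained libraries, against 29.5% and 28.1% of the loci of any length.

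Among oxidative regulators, 7 of 25 genes were next to a domain in each list, 6 of them in both. Myoglobin (Mb), the oxygen store of oxidative fibres, was the only 1 of the list's 8 loci above both control libraries, while 2 were below both. Over the loci of any length 28.1% were above and 29.5% below. Of the 852 loci of broad domains, 143 (16.8%) were above and 230 below. At Mb, a control domain of 10648 bp and a second peak stood against 1 detrained domain of 17456 bp on chromosome 15 (77012891 to 77030347). That domain closed the gap of 2847 bp whose middle is printed above. It held 825 and 1004 tags in C2 and C3, against 1295 and 1156 in Ex1 and Ex2, and both detrained libraries were above both control libraries, with a log2 ratio of 0.42, or 0.33 filled. At Prkaa2 and Prkag3, subunits of the energy sensor AMPK, the values were lower, at 1489, 1929, 1479 and 1400 tags and at 701, 796, 620 and 568, although filling made the groups overlap at Prkaa2. Ppargc1a, the coactivator PGC1α, kept a domain of 10589 bp in the control and 10129 bp in the detrained list, with overlapping values of 433, 604, 555 and 514 tags.

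Most myogenic factors with a domain had it in both lists. Of 21 myogenic regulators 6 were next to a control and 5 to a detrained domain, 5 to both, among them Myf6 (13694 and 15714 bp) and Mef2d. Only Myod1 had a control domain alone, at 10087 bp against 9837 bp. Of the 770 named genes of any kind with a domain in either list, 398 had one in both. The groups overlapped at 6 of the 7 loci of this list named by nearest gene, beside 56.2% of all 852 loci, and the other one, at Nfix, a factor of fetal and adult myogenesis, was lower in both detrained libraries at 2195, 2265, 1903 and 2051 tags. Of 4 more loci that touched a gene of the list, 3 overlapped and 1, also in Nfix, was higher in both, at 846, 897, 1031 and 925 tags. Of 18 circadian genes, 5 and 3 were next to a domain. Per1 held 1938, 2065, 2225 and 2175 tags, both detrained libraries above, and the 2 loci at Nr1d1, a repressor of the clock, overlapped.

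Of 20 early response genes 4 and 5 were next to a domain, with Klf6 the only locus higher in both detrained libraries, at 1102, 1149, 1309 and 1194 tags, and Fosl2, an AP-1 subunit, the only locus lower in both, at 1151, 1194, 1095 and 1106. These are 1 of 7 loci each way, beside 28.1% above and 29.5% below over the loci of any length. Of the 852 loci of broad domains, 143 (16.8%) were above and 230 below. Of 16 genes of atrophy and autophagy 4 and 3 were next to a domain. Ddit4, the inhibitor of mTORC1 also called REDD1, had a control domain of 14832 bp and a detrained domain of 17511 bp, with 1126, 1147, 1308 and 1463 tags, a log2 ratio of 0.29, or 0.26 filled. Of 2 loci at Tfeb, a regulator of lysosomal genes, 1 was lower in both detrained libraries, at 1029, 1097, 998 and 952 tags. Of the list's 5 loci, 1 was thus above and 1 below, beside the same shares of 28.1% and 29.5% over the loci of any length. Fbxo32 and Trim63, the muscle ubiquitin ligases atrogin-1 and MuRF1, had overlapping values of 1054, 1373, 1116 and 1081 and of 831, 1013, 945 and 925 tags.

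Markers of some other cells of the tissue lay next to a domain. None of 10 fibroblast genes did in either list, and 1 of 12 immune genes (Spi1) and 1 of 9 smooth muscle genes (Pdgfrb) did in the detrained list alone, while 1 of 8 adipocyte genes (Fabp4) and 1 of 8 glial genes (Pmp22) did in the control list alone. A detrained domain that touched C1qa, a complement gene of macrophages, held 335 and 287 tags in C2 and C3, against 393 and 376 in Ex1 and Ex2, with both detrained libraries above, while the groups overlapped at Spi1. Of 14 endothelial genes 3 (21.4%) did in each list, where 3.79% and 3.68% of all named genes did. At the endothelial loci of Erg, Egfl7 and Sox18 the order of libraries did not follow the groups. Erg held 795 and 1150 tags in C2 and C3, against 1274 and 836 in Ex1 and Ex2, Egfl7 held 714, 1020, 1074 and 740, and Sox18 held 405, 572, 603 and 449. C3 and Ex1 were the higher library of their group at all 3. At Pecam1, the fourth endothelial locus, the detrained libraries (398 and 423 tags) were both below the control libraries (526 and 533). The part that the cell makeup of each library had in the domain values was not tested. Pdgfrb, the receptor of pericytes, held 493, 538, 633 and 590 tags, with both detrained libraries above, and a log2 ratio of 0.25, or 0.13 filled.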

How the data were processed

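H3K27ac ChIP-seq of quadriceps was analysed from 2 peak lists, 1 per group. Per the study's methods, reads were aligned to mm10 with Bowtie (version 1.2 in the submitters' processing notes), uniquely mapped reads were kept with at most 1 tag starting at a position, and HOMER called histone-style peaks over input on both libraries of a group with DESeq2. The deposited signal column holds the coverage of each peak as tags pooled over both libraries and scaled to 10000000 tags. The deposited log2 columns hold regularized log2 values per library and input and a log2 fold over input, and the deposited adjusted p-value column belongs to that fold over input. The log2 fold and adjusted p-value were used only for a description of enrichment and for a stricter filter, and no comparison of groups by the authors was used. Peak length is end minus start as deposited.

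Each library's tags were derived by dividing the pooled value according to the deposited log2 values, so they carry that shrinkage. Tags of partly overlapping peaks were counted in proportion to the overlap. Per the study's methods each histone sample was 1 quadriceps of 1 animal, but columns C2 and C3 cannot be tied to a numbered control sample. Ratios are log2 after adding 0.5 tags. With 2 libraries per group, and tables normalized separately, no test between groups was made. Shares have 95% Wilson intervals, which cover counting error only. Start sites and gene bodies came from the GENCODE basic annotation of GRCm38, promoter windows from RefSeq. The work used pysam 0.24.0, matplotlib 3.10.9, scipy 1.17.1, pandas 2.3.3 and numpy 2.4.6 under Python 3.11.15, and the scripts were tested on simulated intervals.

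The domains, gene lists and measures were chosen with earlier results of these data known. Named were, per list, the 5 longest domains, up to 3 in the most parts, the 5 least covered, the 3 densest and 3 sparsest and the 3 on each side of the length limit, besides domains nearest to a listed gene and the 3 loci with the largest length ratio in each direction. The joining of both lists into loci, and the link to a gene by the gene body touched, were chosen after seeing the data. Alternatives were other length limits, coverage limits, overlap rules, stricter peaks, joined peaks, other scalings and leaving out each library.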

Additional observations from a re-analysis of the deposited data

How the results depend on the processing

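Of 108 alternatives for the summary values, 58 left the value within its error, 42 moved it and 8 turned its sign. A limit of 8, 12 or 15 kb gave 1185, 403 and 199 control and 1244, 351 and 169 detrained domains, and joining peaks closer than 1000 bp gave 1027 and 1000. Whole control domains came to 46.8% when 90% coverage was required, 76.2% with joined peaks, and 57.1%, 48.1% and 42.7% at the 3 limits, and split ones to 38.7% when most of the other peak had to lie inside, 38.3% with stricter peaks, 19.4% with joined peaks, and 37.6%, 49.9% and 56.3% at the limits. Whole detrained domains came to 48.7%, 60.1% with stricter peaks, 78.9% joined and 49.7% at 15 kb, and split ones to 37.0%, 33.4%, 19.0% and 49.7%. Coverage was 91.0% (control) and 91.5% (detrained) as a mean, 92.9% and 92.4% at 8 kb, and 94.8% for detrained domains at 15 kb. The short gaps thus set much of the share split, as the joining by its construction closes gaps under 1000 bp.

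The median log2 ratio of the other list's tags to a domain's own was −0.14 for control domains, −0.035 with the whole counterpart and −0.24 to −0.030 without single libraries. For detrained domains it was −0.08, then 0.021 with the whole counterpart and −0.17 to 0.019 without single libraries, with 0.019 without C2. Over all loci the ratio of −0.04 was 0.016 per tag in listed peaks and −0.14 to 0.070 without single libraries, being 0.070 without C3 and 0.0030 without Ex2. Over loci with domains in both lists −0.03 was 0.025 and −0.14 to 0.077, being 0.077 without C3 and 0.0090 without Ex2. The median for control domains was below 0 in each of these. Picking domains by length in their own list, and counting uncovered bases as no tags, favours such a value. The sign of the other 3 turned when a single library was left out. Density against shorter peaks was 1.20 times in both lists by fold over input, and 9.45% and 9.83% of centres lay within 1000 bp of a start site. Counted by gene bodies touched, 8 and 8 fast-fibre and 13 and 9 glycolysis genes had a control and a detrained domain, within 1.5 times of the counts by nearest gene.

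At 51 named loci, 288 of 408 alternatives left the ratio within the standard deviation of its values by single library. Another 31, at 17 loci, gave the other sign, 21 of them by leaving out a library (9 without C3). With C3 left out, Rcsd1 went from −0.14 to 0.020, Rbfox1 from −0.16 to 0.057 and the joined Mir6338 locus from −0.05 to 0.149. Only 1 of the 31 was at a locus whose groups did not overlap, that of Sash1 with uncovered bases filled (−0.0073). The joined loci, the link by touched gene bodies and the gene list medians without a library were chosen after seeing the data. No paired analysis was possible because C2 and C3 share only 1 number with Ex1 and Ex2, and no test was made. Lists of peaks show no signal below the caller's limit, which bounds what a gap or an absent domain can say.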

Other observations

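The domains were not spread over the chromosomes in the same numbers in both lists. Chromosome 8 held 37 control and 51 detrained domains, and chromosome 9 held 43 and 30, while all listed peaks numbered 2458 and 2145 on chromosome 8 and 2604 and 2248 on chromosome 9. These pairs were picked after the counts were seen and were not tested.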
